A study of Mus musculus with 4 samples.

Results

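The genes described here are 43 lysosomal genes, chosen by name from the 32285 genes listed in the files. They comprise 9 genes for cathepsins and the asparaginyl endopeptidase, 7 for glycosidases and a lipid hydrolase, and 8 for membrane and lumenal carrier proteins. A further 16 encode subunits and accessory proteins of the proton pump, and 3 encode transcription factors of the MiT/TFE family. The choice applied no rule on measured values, but it was made with earlier results of these data known. All 43 were found in every library.

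Lung macrophages were sorted and profiled by droplet single-cell RNA sequencing with 3′ counting of unique molecular identifiers (UMIs, 1 per captured RNA molecule). The 4 groups were female MMTV-HER2 mice of the late stage (32 weeks), wildtype FVB mice of the late stage, MMTV-HER2 mice of the early stage (16 weeks) and wildtype FVB mice of the early stage. In MMTV-HER2 mice the HER2 oncogene is driven by the mouse mammary tumour virus promoter, which is active mainly in mammary epithelium, and the labels describe the late stage by palpable tumours and the early one by early lesions. Each group is 1 library, and the sources used here do not give the number of mice behind it, so no difference between genotypes or ages below has a replicate check.

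Lysosomes hold acid hydrolases that break down proteins, glycans and lipids taken up from outside or delivered by autophagy. The vacuolar ATPase acidifies them: its cytosolic V1 sector hydrolyses ATP and turns a rotor, and its membrane V0 sector passes protons into the lumen. TFEB, TFE3 and MITF can switch on many lysosomal genes together through a short promoter element built around CACGTG, known as the CLEAR motif. In the lung, alveolar macrophages (AM) clear surfactant, dust and microbes from the air spaces, while interstitial macrophages (IM) lie in the tissue and present antigen.

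After filtering, 6554 HER2 late, 5129 wildtype late, 5126 HER2 early and 5449 wildtype early cells remained, with a median of 3801 to 4478 UMIs per cell. A cell was called AM when Chil3, Ear1, Ear2, Fabp1, Lpl and Plet1 made up at least 0.4% of its UMIs and exceeded the C1q genes, and IM when C1qa, C1qb and C1qc gave at least 5 UMIs and exceeded the AM genes. This gave 4245 to 5702 AM cells and 330 to 661 IM cells per library, with 191 to 286 other cells. The 7 AM markers outside the gate, among them Siglecf and Pparg, summed to 1341 to 1617 CPM (UMIs of a gene as a share of all UMIs, scaled as counts in 1000000) in AM cells, against 144 to 300.1 CPM in IM cells. The 7 IM markers outside the gate summed to 99.8 to 140 CPM in AM cells, against 4094 to 5093 CPM in IM cells. Among them, Cx3cr1 had 3.84 to 11.7 CPM in AM cells, against 539.5 to 714 CPM in IM cells. Ms4a7 had 4.02 to 8.23 CPM in AM cells, against 423 to 476 CPM in IM cells. The other cells were a mixture, in which 5 endothelial markers summed to 2666 to 5487 CPM and 5 epithelial markers to 450.2 to 28690 CPM. The wildtype early library stood apart in IM cells: 40.0% of them held at least 3 UMIs of 6 T cell genes, against 2.42% in HER2 late, 4.74% in wildtype late and 4.62% in HER2 early. Between 1 and 13 cell barcodes were shared by a pair of libraries. Erbb2, whose reads do not separate a transgene from the mouse gene, stood at 8.60 CPM in HER2 late, 10.2 in wildtype late, 11.3 in HER2 early and 6.78 in wildtype early AM cells.

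RefSeq promoter windows (GRCm38.p6) were at hand for 35 of the 43 members, each 300 bases long and starting 250 bases before a RefSeq start site. Those of Ctsb, Ctsh, Asah1, Atp6v0d2, Atp6v1b2, Atp6v1c1, Atp6v1g1 and Atp6v1h were not in the table. CACGTG, which reads the same on both strands, was present in 12 of the 35 windows (34.3%), against 8.09% of 27025 genes. The longer forms TCACGTG or CACGTGA, which contain it and were searched on both strands, were present in 11 of the 35 (31.4%), against 4.29% of all genes. The stretches below show the element in capitals for 6 members whose levels are described further on: 4 that were higher in AM cells across the board (Lamp1, Mcoln1, Ctsd, Atp6v0d1), Atp6v0b of the late genotype comparison, and Lgmn, which was lower in AM cells.
Lamp1 (chr8:13159075-13159176, plus strand): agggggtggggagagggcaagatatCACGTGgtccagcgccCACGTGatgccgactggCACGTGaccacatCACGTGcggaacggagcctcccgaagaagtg
Mcoln1 (chr8:3500423-3500504, plus strand): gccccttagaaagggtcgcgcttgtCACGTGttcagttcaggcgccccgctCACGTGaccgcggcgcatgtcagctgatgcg
Ctsd (chr7:142387895-142388077, minus strand): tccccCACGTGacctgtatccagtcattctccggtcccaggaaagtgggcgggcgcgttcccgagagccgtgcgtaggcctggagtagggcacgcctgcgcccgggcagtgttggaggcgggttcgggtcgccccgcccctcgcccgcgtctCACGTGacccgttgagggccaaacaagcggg
Atp6v0d1 (chr8:105566037-105566092, minus strand): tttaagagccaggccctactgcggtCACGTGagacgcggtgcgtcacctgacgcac
Atp6v0b (chr4:117887317-117887390, minus strand): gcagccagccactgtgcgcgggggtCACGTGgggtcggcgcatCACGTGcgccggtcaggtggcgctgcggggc
Lgmn (chr12:102439111-102439166, minus strand): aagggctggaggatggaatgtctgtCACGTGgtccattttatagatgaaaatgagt
Lamp1 carried 4 copies of CACGTG within the window, Mcoln1, Ctsd and Atp6v0b carried 2 each, and Atp6v0d1 and Lgmn carried 1. The Lgmn window (chr12:102439043-102439342) lay inside the gene as placed by GENCODE (chr12:102394084-102439813, minus strand), not at its outer end. The windows of Ctsa, Ctsl and Atp6v1a, which also held CACGTG, lay inside their genes as well. A match describes the letters in the window and shows neither binding nor control.

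Which lysosomal genes differ between AM and IM cells is the comparison with replicates, since each of the 4 libraries holds both classes. Of the 43 members, 32 were higher in AM cells, 5 were lower and 6 did not pass the test, by edgeR's quasi-likelihood test on summed UMI counts with the library as a block (Benjamini-Hochberg adjusted p under 0.05 over all genes). Among all 12852 genes tested, 31.2% were higher and 32.7% lower in AM cells. A difference of at least 2-fold was found for 14 members higher in AM cells and 3 lower, beside 11.3% and 21.4% of all genes. The median difference was a log2 of 0.73 over the members and -0.03 over all genes tested. These differences depend on the scaling. With UMI totals in place of trimmed-mean factors, the median of all genes moved to -0.32, 26 members were higher and 8 lower, beside 19.2% and 44.9% of all genes. Gm42418, a transcript that overlaps ribosomal RNA sequence, took 165400 to 196300 CPM in AM cells, against 37410 to 61800 CPM in IM cells, and its part in that shift was not tested.

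All 16 proton pump members were higher in AM cells: 6 of 6 V0 genes with a median log2 difference of 0.88, 8 of 8 V1 genes with 1.24, and both accessory genes with 0.99. With UMI totals as the scale 15 of the 16 were higher, and Atp6v0b did not pass. Atp6v0d2, a tissue-restricted d subunit of V0 best known from osteoclasts (GRCm38 chr4:19876841-19922605, minus strand), stood furthest apart. In AM cells it had 718 CPM in HER2 late, 795 in wildtype late, 735 in HER2 early and 739 in wildtype early. In IM cells it had 33.4 CPM in HER2 late, 20.8 in wildtype late, 25 in HER2 early and 21.0 in wildtype early. The classes were far apart in every library, and the fitted log2 difference was 5.18 ± 0.15 (SE, 4 libraries; adjusted p = 5.01e-10 by edgeR's quasi-likelihood test).

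Atp6v0d2 in IM cells was set beside an estimate of free RNA. Its IM level was 4.65% of the AM level in HER2 late, 2.61% in wildtype late, 3.40% in HER2 early and 2.84% in wildtype early. The share of IM UMIs estimated as free RNA, from AM gate genes, was 3.68% in HER2 late, 2.05% in wildtype late, 3.49% in HER2 early and 2.45% in wildtype early. The gate itself limits these genes in IM cells, so the estimate is not free of the gate. Free RNA so estimated came to 13.2 to 23.7 CPM of Atp6v0d2, and 7.08 to 10.0 CPM were left after its subtraction. Among IM cells with under 3 UMIs of the AM gate genes, Atp6v0d2 stood at 7.08 to 11.0 CPM. In each library the 3 richest IM cells held 20.9 to 40.4% of the Atp6v0d2 UMIs of IM cells. Whether free RNA, doublets or misassigned cells gave these UMIs was not tested. After every cell was thinned to 1000 UMIs, the gene was seen in 47.6 to 51.2% of AM cells, 1.10 to 1.97% of IM cells and 1.20 to 8.38% of other cells. Before thinning the shares were 84.8 to 91.1% of AM cells and 5.06 to 9.98% of IM cells, whose median depths were 3728 to 4752 and 3219 to 6440 UMIs.

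Its widely expressed counterpart Atp6v0d1 differed by less. It had 199 CPM in HER2 late, 252 in wildtype late, 181 in HER2 early and 186 in wildtype early AM cells, against 79.4, 93.2, 76.4 and 85.1 CPM in IM cells of the same libraries. The log2 difference was 1.58 ± 0.08 (SE, 4 libraries; adjusted p = 2.86e-08, edgeR). The proteolipid subunits that form the proton-carrying ring differed least within V0: Atp6v0c by 0.51 ± 0.08 and Atp6v0b by 0.42 ± 0.08. The a subunits, which line the proton path, lay between, with Atp6v0a1 at 1.02 ± 0.09 and Tcirg1, the a3 subunit of osteoclast acid secretion, at 0.73 ± 0.09.

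In V1 the largest differences were those of a nucleotide-binding subunit and a stalk subunit. Atp6v1b2, subunit B, had 342 CPM in HER2 late, 367 in wildtype late, 354 in HER2 early and 355 in wildtype early AM cells, against 92.1, 97.6, 102 and 99.99 CPM in IM cells of the same libraries. Its log2 difference was 2.15 ± 0.08 (SE, 4 libraries; adjusted p = 2.66e-09, edgeR), or 4.44-fold. Atp6v1e1, subunit E of the peripheral stalk, had 457, 651, 452 and 439 CPM in HER2 late, wildtype late, HER2 early and wildtype early AM cells, against 133, 191, 142 and 124 CPM in IM cells. It differed by 2.06 ± 0.08 (adjusted p = 5.07e-09, edgeR), and wildtype late was the highest library in both classes. The regulatory subunit C, Atp6v1c1, differed by 1.71 ± 0.11, the rotor subunit Atp6v1d by 1.26 ± 0.12, the catalytic subunit Atp6v1a by 1.23 ± 0.10 and the stalk subunit Atp6v1g1 by 1.10 ± 0.08. Atp6v1h, which links the sectors, and Atp6v1f of the rotor differed by 0.87 ± 0.12 and 0.76 ± 0.08. Both proteins that help to assemble the pump were near 2-fold higher, Atp6ap2 by 1.01 ± 0.11 and Atp6ap1 by 0.97 ± 0.08.

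**Figure D1:**
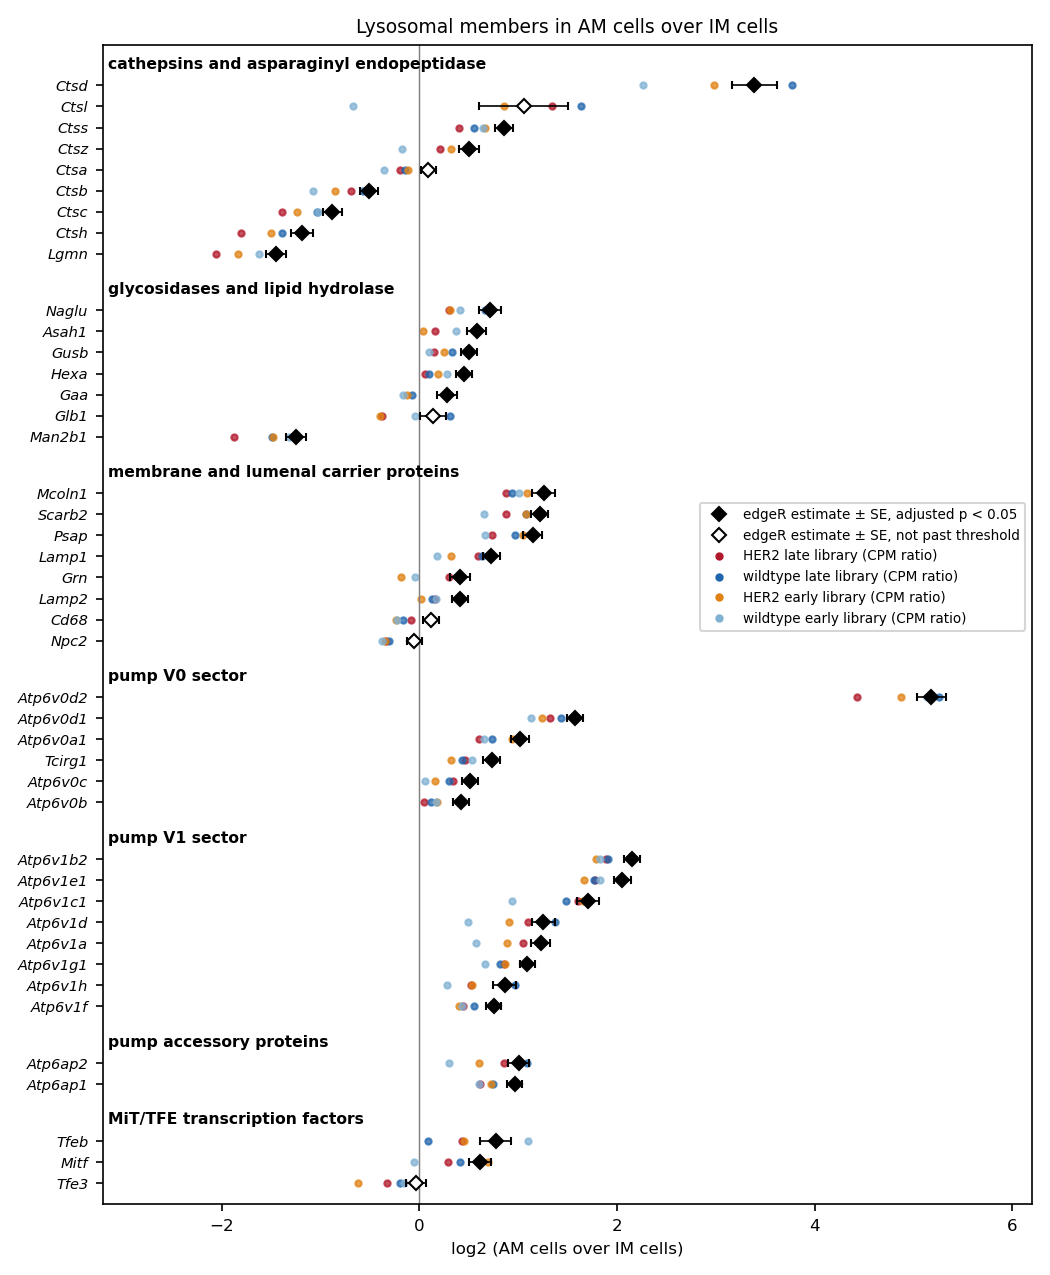
Log2 difference of each of the 43 members between AM and IM cells, grouped by role. Diamonds are the edgeR estimate ± SE derived from the fit to 4 libraries (filled where the adjusted p is under 0.05). Dots are the plain CPM ratio of each library. All 16 pump genes lie right of 0, while 4 of the 9 genes for cathepsins and the asparaginyl endopeptidase lie left of it; dots sit left of most diamonds because plain CPM leaves out the scaling factors.

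The hydrolases were split. Of the 9 genes for cathepsins and the asparaginyl endopeptidase, 3 were higher in AM cells, 4 were lower and 2 did not pass. Over all genes 31.2% were higher and 32.7% lower. Ctsd, the main aspartic protease of lysosomes (chr7:142375911-142388038, minus strand), had 4060 CPM in HER2 late, 4691 in wildtype late, 3677 in HER2 early and 3450 in wildtype early AM cells. In IM cells it had 393 CPM in HER2 late, 342 in wildtype late, 467 in HER2 early and 716 in wildtype early. The classes did not overlap, and the log2 difference was 3.39 ± 0.23 (SE, 4 libraries; adjusted p = 1.03e-05, edgeR), or 10.5-fold. The IM level was 7.30 to 20.8% of the AM level. Free RNA, estimated as for Atp6v0d2, came to 71.0 CPM of Ctsd in wildtype early to 172.9 CPM in HER2 late IM cells. After its subtraction 228 to 662 CPM were left in IM cells. Ctss, a cysteine protease of antigen presentation, differed by 0.86 ± 0.09, and the carboxypeptidase Ctsz by 0.50 ± 0.10. Ctsz did not pass with UMI totals as the scale (adjusted p = 0.0924, edgeR) or without cells holding T cell UMIs (adjusted p = 0.124, edgeR).

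Lgmn, Ctsh, Ctsc and Ctsb were lower in AM cells. Lgmn, the asparaginyl endopeptidase (GRCm38 chr12:102394084-102439813, minus strand), had 130 CPM in HER2 late, 137 in wildtype late, 136 in HER2 early and 141 in wildtype early AM cells, against 539, 379, 485 and 432 CPM in IM cells. Its log2 difference was -1.45 ± 0.10 (SE, 4 libraries; adjusted p = 4.18e-07, edgeR). Its AM levels were nearly level across libraries, while its IM levels were highest in HER2 late and lowest in wildtype late. Ctsh, an aminopeptidase that also processes surfactant proteins in epithelium, had 236, 245, 247 and 260 CPM in HER2 late, wildtype late, HER2 early and wildtype early AM cells. In IM cells it had 824 CPM in HER2 late, 641 in wildtype late, 701 in HER2 early and 603 in wildtype early. The log2 difference was -1.18 ± 0.11 (adjusted p = 2.78e-06, edgeR). Ctsc, the dipeptidyl peptidase that activates granule proteases, differed by -0.88 ± 0.09 and Ctsb by -0.50 ± 0.09, and both had the same sign in all 4 libraries and under every alternative run.

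Ctsl, a cysteine endopeptidase, gave no call although AM cells were higher in 3 of 4 libraries. It had 157 CPM in HER2 late, 203 in wildtype late, 159 in HER2 early and 156 in wildtype early AM cells, against 61.8, 64.9, 88.0 and 249 CPM in IM cells. The wildtype early IM value stood alone above its AM value (log2 difference over all 1.06 ± 0.45, adjusted p = 0.116, edgeR). DESeq2 called it, with a log2 difference of 1.08 (adjusted p = 0.0310). In that library IM cells with at least 3 T cell UMIs held 403 CPM of Ctsl, and the rest of its IM cells held 125 CPM. Without such cells the log2 difference was 1.31 (adjusted p = 0.00920, edgeR), and without the wildtype early library it was 1.53 (adjusted p = 1.03e-07, edgeR). Ctsa, the carboxypeptidase that shields other hydrolases, differed by 0.09 ± 0.08 and did not pass, but with UMI totals it was lower in AM cells (-0.20, adjusted p = 0.0360, edgeR).

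Of the glycosidases and the lipid hydrolase, 5 of 7 were higher in AM cells (31.2% of all genes), 1 was lower (32.7% of all genes) and 1 did not pass. Man2b1, the lysosomal alpha-mannosidase, was the one lower: it had 149 CPM in HER2 late, 193 in wildtype late, 158 in HER2 early and 150 in wildtype early AM cells, against 543, 540, 438 and 374 CPM in IM cells. Its log2 difference was -1.25 ± 0.10 (SE, 4 libraries; adjusted p = 1.41e-06, edgeR), with no overlap of the classes. Naglu, which acts on heparan sulfate, differed by 0.71 ± 0.11, the acid ceramidase Asah1 by 0.58 ± 0.10, the beta-glucuronidase Gusb by 0.50 ± 0.08 and the hexosaminidase subunit Hexa by 0.45 ± 0.09. These were smaller differences than most of the pump's, and Hexa did not pass with UMI totals as the scale. The glycogen-degrading enzyme Gaa, at 0.28 ± 0.10 (adjusted p = 0.0340, edgeR), did not pass in 7 of 13 alternatives, and with UMI totals it had the opposite sign (-0.02). Glb1, a beta-galactosidase, differed by 0.14 ± 0.13 and did not pass.

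**Figure D2:**
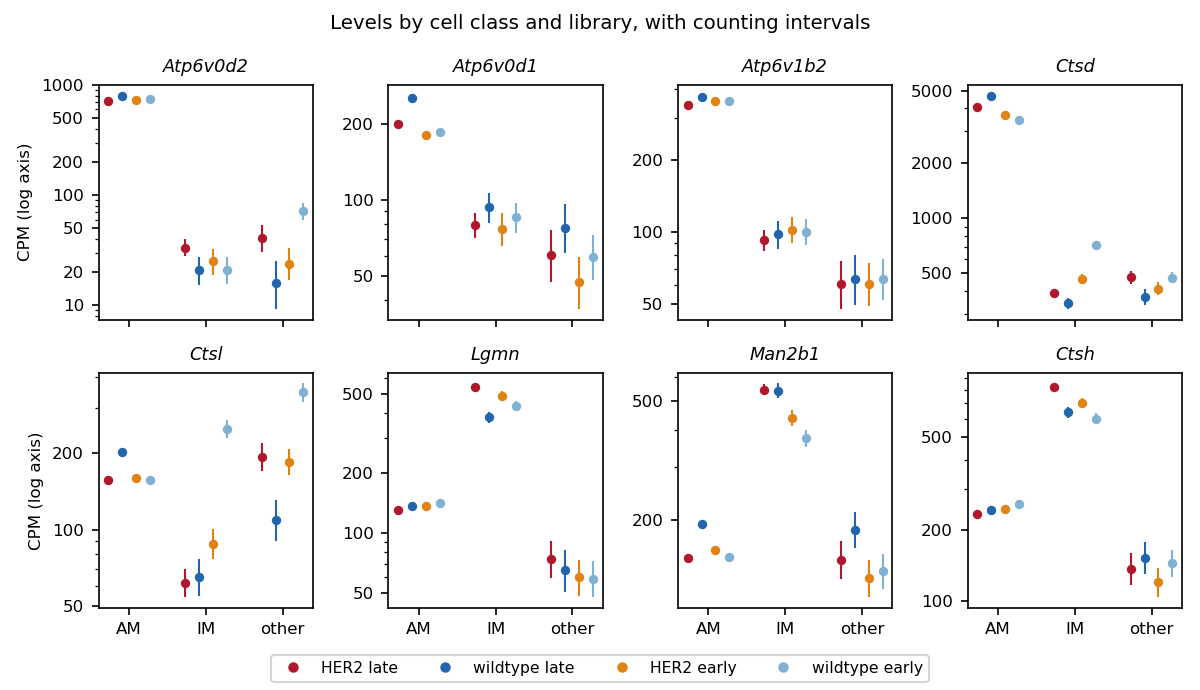
Levels of 8 members in CPM (log axes) in AM, IM and other cells of each library, with 95% Poisson intervals that cover counting error only. Atp6v0d2, Atp6v0d1, Atp6v1b2 and Ctsd are highest in AM cells, Lgmn, Man2b1 and Ctsh are highest in IM cells, and Ctsl in IM cells is far higher in wildtype early than in the other 3 libraries.

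Among the membrane and lumenal carrier proteins, 6 of 8 were higher in AM cells (31.2% of all genes) and 2 did not pass. Psap, the precursor of the saposins that help to degrade sphingolipids, had 4399 CPM in HER2 late, 5574 in wildtype late, 4131 in HER2 early and 3890 in wildtype early AM cells, against 2632, 2856, 1994 and 2453 CPM in IM cells. It differed by 1.15 ± 0.10 (SE, 4 libraries; adjusted p = 1.29e-06, edgeR). Mcoln1, the calcium-releasing channel TRPML1, differed by 1.26 ± 0.12 and Scarb2, which carries glucocerebrosidase to lysosomes, by 1.22 ± 0.09. The membrane glycoprotein Lamp1 differed by 0.73 ± 0.09, while Lamp2 (0.41 ± 0.08) and progranulin, Grn (0.41 ± 0.10), passed with trimmed-mean factors but not with UMI totals. By plain CPM Grn was higher in AM cells in 2 of 4 libraries, and it did not pass without the library block (adjusted p = 0.0714, edgeR). Cd68 differed by 0.12 ± 0.08 and the cholesterol carrier Npc2 by -0.05 ± 0.08, and neither passed. With no filter on low counts Cd68 was higher in AM cells (0.22, adjusted p = 0.0439, edgeR), and with UMI totals Npc2 was lower (-0.34, adjusted p = 0.00131, edgeR).

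Of the MiT/TFE factors, Tfeb and Mitf were higher in AM cells and Tfe3 did not pass. Tfeb had 36.3 CPM in HER2 late, 44.3 in wildtype late, 34.8 in HER2 early and 37.1 in wildtype early AM cells, against 26.9, 41.5, 25.5 and 17.3 CPM in IM cells. It differed by 0.77 ± 0.16 (SE, 4 libraries; adjusted p = 0.00124, edgeR), although in wildtype late the 2 classes were nearly level. Mitf had 54.2, 70.0, 58.0 and 59.4 CPM in HER2 late, wildtype late, HER2 early and wildtype early AM cells, against 44.2, 52.6, 35.8 and 61.7 CPM in IM cells. Its log2 difference was 0.62 ± 0.11 (adjusted p = 5.02e-04, edgeR), and by plain CPM AM cells were higher in 3 of 4 libraries. Tfe3 differed by -0.03 ± 0.10 (adjusted p = 0.799, edgeR), and with UMI totals it was lower (-0.33, adjusted p = 0.0168, edgeR). Members with CACGTG in the promoter window had a median log2 difference of 0.72, and those with a window but without it 0.62.

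A further 83 lysosomal pathway genes were set beside the members. Of 80 tested, 42 were higher in AM cells and 20 lower, beside 31.2% and 32.7% of all genes. The median log2 difference of the 80 was 0.32. Among further pump subunits and assembly factors 6 of 11 tested were higher and 3 lower, and among further hydrolases and activators 17 of 30 were higher and 7 lower. The 3 furthest to the AM side were Ctsk, a collagen-cutting cathepsin (4.95 ± 0.24), Sort1, a sorting receptor for lysosomal proteins (4.80 ± 0.18), and Dmxl2, a pump assembly factor (3.53 ± 0.10). Those furthest to the IM side were the cathepsin inhibitor Cst7, the mannose 6-phosphate receptor Igf2r and the 2-pore channel Tpcn1. Tpcn1 had 1.37 to 2.06 CPM in AM cells, against 32.1 to 40.3 CPM in IM cells (log2 difference -4.07 ± 0.16). Igf2r had 0.0549 to 0.472 CPM in AM cells, against 3.10 to 16.9 CPM in IM cells. Cst7 rested on wildtype early, where 147 of its UMIs fell in IM cells, against 0 to 7 in the other 3 libraries.

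The classes differed in order. In all 4 libraries the other cells had the lowest CPM for 34 of the 43 members, beside 12.7% of 6183 genes. AM cells were highest in every library for 27 members (19.1% of all genes), and IM cells for 9 (13% of all genes), namely Ctsa, Ctsb, Ctsc, Ctsh, Cd68, Man2b1, Lgmn, Npc2 and Tfe3. The median AM cell gave 2.13% of its UMIs to the 43 members in HER2 late, 2.51% in wildtype late, 2.08% in HER2 early and 2.01% in wildtype early. The median IM cell gave 1.63, 1.65, 1.49 and 1.42% in HER2 late, wildtype late, HER2 early and wildtype early, and the median other cell between 0.473 and 0.593%. All these shares are of plain UMIs, without scaling factors. In AM cells the log2 ratio of HER2 late over wildtype late had a median of -0.19 over all genes compared. In every library AM cells had the higher median for hydrolases and for the pump. Ctsd weighs heavily in the hydrolase share, with a mean over the 4 libraries of 3969 CPM in AM cells and 479.6 CPM in IM cells. The hydrolase share without Ctsd was not computed, so its order does not describe the hydrolases 1 by 1. Hydrolase shares had medians of 0.899 to 1.13% in AM cells and 0.715 to 0.819% in IM cells, while pump shares had 0.452 to 0.507% in AM cells and 0.234 to 0.246% in IM cells.

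**Figure D3:**
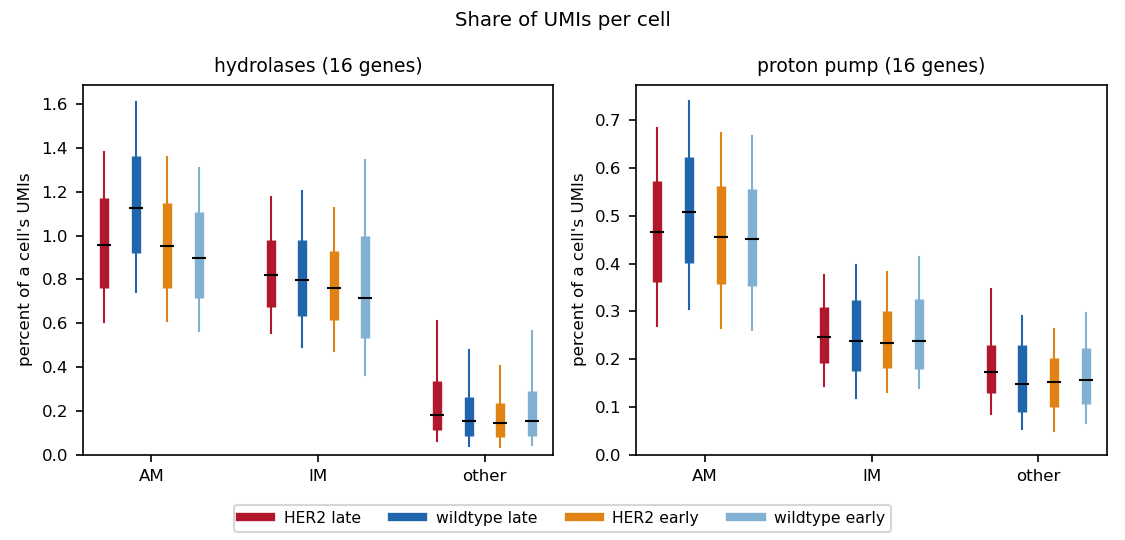
Percent of a cell's UMIs from hydrolase members (left) and proton pump members (right) in AM, IM and other cells of each library; black marks are medians over cells, thick bars the middle 50% and thin lines the 10th to 90th percentiles. Pump shares of AM cells lie well above those of IM cells in every library, hydrolase shares overlap more, and wildtype late AM cells have the highest medians of both. Shares are of plain UMIs, without scaling factors.

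The genotype comparison within AM cells asks whether lysosomal genes differ between MMTV-HER2 and wildtype mice at each stage. It is given as log2 ratios less the median of the 5224 genes compared (those averaging 20 CPM or more), with 95% intervals that cover counting error only. Members were counted as higher or lower where the ratio lay at or past a limit of 0.32 on the log2 scale. At the early stage 0 of 43 members were higher in HER2 and 0 lower, beside 0.345% and 0.593% of all genes. The ratios ran from -0.13 for Tcirg1 to 0.21 for Cd68, with a median of 0.04, and 31 of 43 lay above 0. Cd68, a heavily glycosylated membrane protein of macrophages, had 380 CPM in HER2 early and 333 in wildtype early AM cells, a ratio of 0.21 (0.16 to 0.26). Ctsa had 380 CPM in HER2 early and 342 in wildtype early (0.17, 0.13 to 0.22), and Ctsd 3677 CPM in HER2 early and 3450 in wildtype early (0.12, 0.10 to 0.13). Psap, at 4131 CPM in HER2 early and 3890 in wildtype early (0.11), and Ctsz, at 926 CPM in HER2 early and 867 in wildtype early (0.12), followed. Tcirg1 had 67.9 CPM in HER2 early and 75.5 in wildtype early (-0.13, -0.23 to -0.02).

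At the late stage 3 members were higher in HER2 past that limit and 4 lower, beside 13.2% and 4.77% of all genes. All 3 that were higher were small pump subunits. Atp6v1g1, of the V1 stalk, had 679 CPM in HER2 late and 567 in wildtype late AM cells, a ratio of 0.45 (0.42 to 0.48). Atp6v0b, of the V0 ring, had 379 CPM in HER2 late and 322 in wildtype late (0.43, 0.38 to 0.47). Atp6v1f, of the V1 rotor, had 454 CPM in HER2 late and 405 in wildtype late (0.35, 0.32 to 0.39). In each the wildtype late library was the lowest of the 4, and the early libraries stood higher, with 395 CPM in HER2 early and 399.7 in wildtype early for Atp6v0b, 432 in HER2 early and 422 in wildtype early for Atp6v1f, and 655 in HER2 early and 635 in wildtype early for Atp6v1g1.

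The 4 members that were lower included other pump subunits, so pump members lay on both sides. Atp6v1h, which links the sectors, had 32.3 CPM in HER2 late and 51.2 in wildtype late AM cells, a ratio of -0.47 (-0.60 to -0.34). Atp6v0a1, of the proton path, had 93.5 CPM in HER2 late and 135 in wildtype late (-0.34, -0.42 to -0.27). Grn, a secreted and lysosomal growth factor, had 622 CPM in HER2 late and 939 in wildtype late (-0.40, -0.43 to -0.37). Mcoln1 had 27.5 CPM in HER2 late and 41.5 in wildtype late (-0.40, -0.54 to -0.26). Here wildtype late was the highest of the 4 libraries. Atp6v1e1, at 457 CPM in HER2 late and 651 in wildtype late (-0.32, -0.36 to -0.29), lay just inside the limit. Npc2, at 601 CPM in HER2 late and 564 in wildtype late (0.28), was the next on the side of HER2. Hexa (0.20) and Ctsz (0.19), at 929.6 CPM in HER2 late and 932 in wildtype late, followed. Tfe3 (-0.28), Mitf (-0.18) and Tfeb (-0.10) were all within the limit, and the median over the members was -0.07.

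Scaling matters for this comparison, since the median of all genes was itself shifted by -0.19 between HER2 late and wildtype late. By plain CPM 0 members were higher and 18 lower in HER2 late, beside 5.51% and 25.6% of all genes. For AM cells free RNA was taken as the lowest estimate over 5 genes of other cell types in HER2 late and 6 in wildtype late. They came from C1qa, C1qb, C1qc, Scgb1a1, Sftpc and Sftpa1, and the gate itself limits the C1q genes in AM cells. The lowest estimate was 8.05% of AM UMIs in HER2 late and 2.47% in wildtype late, where the highest gene gave 22.0% and 11.9%. After subtraction of the lowest estimate the same 3 were higher, and Tcirg1 (-1.21) was lower beside the same 4. Tcirg1 stood at 634 CPM in the free RNA of HER2 late and 378 CPM in that of wildtype late, so its value hangs on this estimate. In the authors' deposited averages over AM cells, all 43 members lay on the same side of the median of all genes as here at the late stage and 39 of 43 at the early stage, and 6 members were past the limit in them at the late stage. Those averages come from the same 4 libraries, so they are not independent of the ratios given here.

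**Figure D4:**
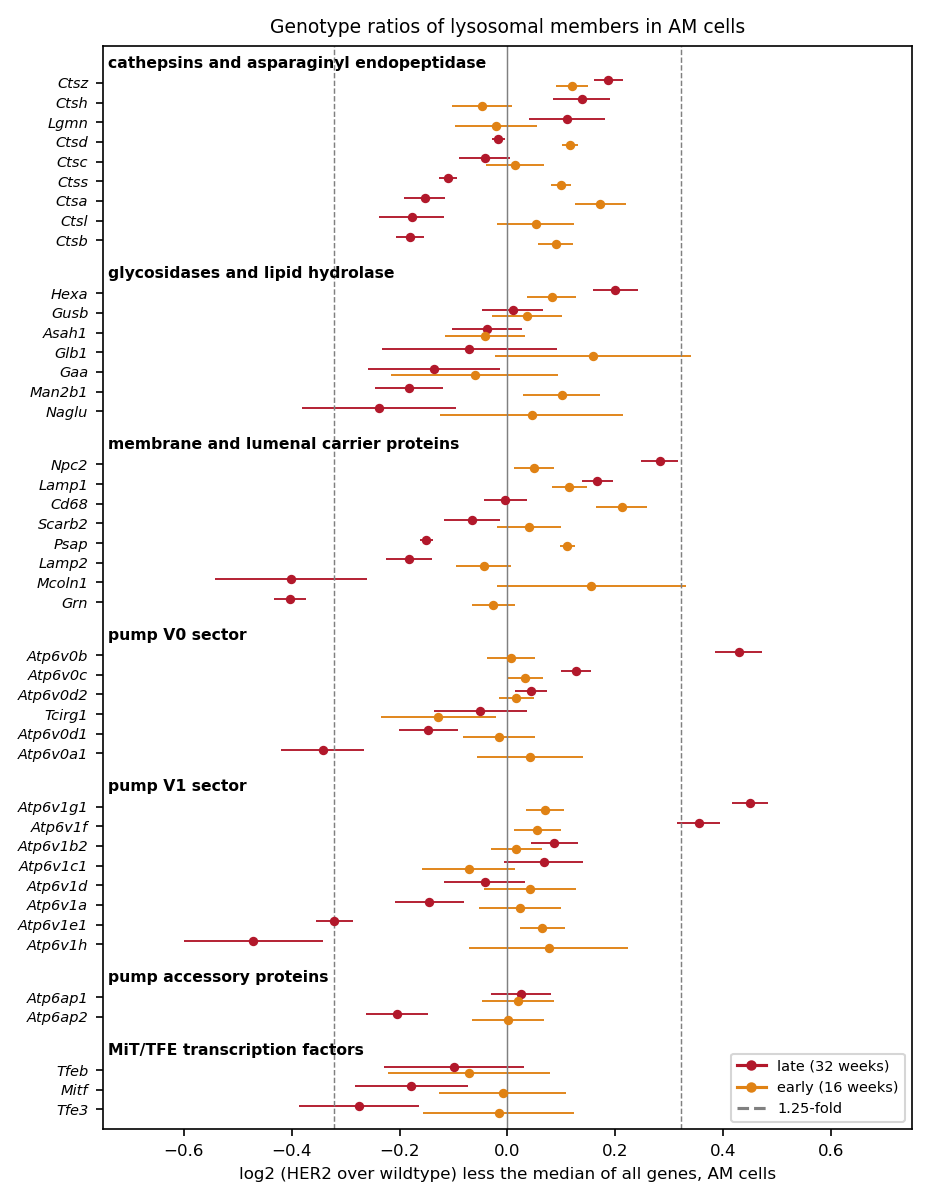
Log2 ratio of HER2 over wildtype AM cells less the median of all genes for the 43 members at the late stage (red) and the early stage (orange), with 95% counting intervals and dashed lines at the limit of 0.32. At the early stage every point lies inside the lines, and at the late stage 3 pump genes lie to the right and 4 members to the left of them.

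Transcript length moved with the late ratios. Across 5222 genes with a GENCODE length, the late ratio had a Spearman correlation of -0.50 with the length of the longest transcript, and across the 43 members -0.44. At the early stage the same values were -0.01 and -0.14. All points share the same pair of libraries, and genes are not independent replicates. The 3 members that were higher in HER2 late had transcripts of 806 to 1135 bases, the 4 that were lower 2049 to 4008 bases, and the 36 between 1183 and 6168 bases. When the median of genes of similar length (10 bins) was subtracted in place of that of all genes, Atp6v1g1 stood at 0.29, Atp6v0b at 0.04 and Atp6v1f at -0.04, so 0 members were higher. Atp6v1h (-0.53), Atp6v1e1 (-0.48), Mcoln1 (-0.46) and Grn (-0.43) were lower past the limit on that scale, and Atp6v0a1 (-0.29) was not. The part of length in these ratios was not tested further.

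**Figure D5:**
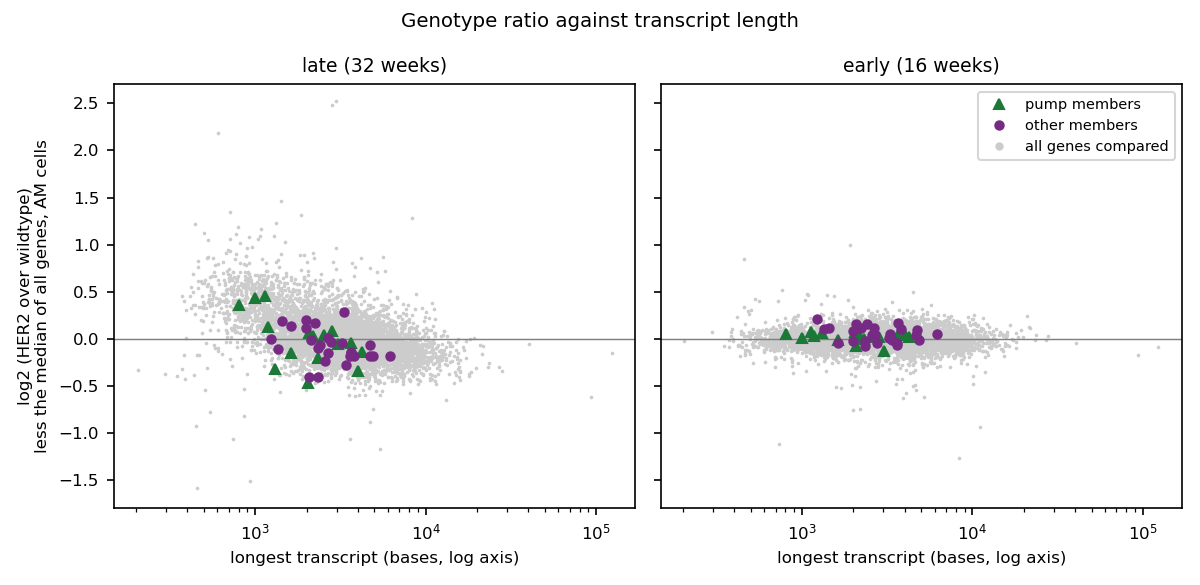
Log2 ratio of HER2 over wildtype AM cells less the median of all genes against the length of the longest transcript (log axis), late stage left and early stage right; grey points are all genes compared, triangles pump members and circles the other members. Short transcripts lie high and long ones low at the late stage, the 3 pump genes above 0.3 among them, and no such slope is seen at the early stage.

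The late over early comparison within each genotype uses the same libraries, so its values are not independent of those above. In wildtype AM cells 10 members were higher at the late stage past the limit and 1 lower, beside 9.76% and 15.6% of all genes, after a shift of 0.15 in the median of all genes. Grn had 939 CPM in wildtype late and 518 in wildtype early (0.71, 0.68 to 0.74). Atp6v0a1 had 135 CPM in wildtype late and 81.1 in wildtype early (0.59, 0.51 to 0.68), and Mcoln1 had 41.5 CPM in wildtype late and 25.2 in wildtype early (0.57, 0.42 to 0.72). Ctsb (0.46), Ctsa (0.44), Tfe3 (0.47), Atp6v1e1 (0.42), Psap (0.37), Gaa (0.37) and Atp6v1h (0.33) were the others. Atp6v0b, the one lower, had 322 CPM in wildtype late and 399.7 in wildtype early (-0.46, -0.50 to -0.41).

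In HER2 AM cells 1 member was higher at the late stage past the limit and 0 lower, beside 1.84% and 1.01% of all genes. It was Grn, with 622 CPM in HER2 late and 500.4 in HER2 early (0.33, 0.29 to 0.37), just past the limit. It lay inside by plain CPM (0.31), with the length bins (0.31) and after subtraction of free RNA (0.26), which was estimated at 8.05% of AM UMIs in HER2 late and 2.77% in HER2 early. Gaa and Tcirg1 (0.29 each) lay just inside it, and Ctss (-0.21) and Atp6v1h (-0.22) were the lowest.

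Over the 4 libraries on the common scale, both HER2 libraries were above both wildtype libraries for 6 members (12.2% of all genes), which were Ctsz, Lamp1, Hexa, Npc2, Atp6v1f and Atp6v1g1. They were below both for Asah1 and Mitf (13.3% of all genes). The margins were small: Lamp1 had scaled levels of 832 CPM in HER2 late and 829 in HER2 early, against 748 in wildtype late and 765 in wildtype early. Hexa had 393 in HER2 late and 411 in HER2 early, against 345 in wildtype late and 387 in wildtype early. The order of Asah1 and Mitf rested on near ties. Asah1 had 152.1 in HER2 late and 148.2 in HER2 early, against 157.3 in wildtype late and 152.4 in wildtype early. Mitf had 56.15 in HER2 late and 59.75 in HER2 early, against 64.05 in wildtype late and 60.04 in wildtype early. Both late libraries were above both early ones for 22 members, beside 25.4% of all genes, and below for 5, beside 26.1%. Wildtype late was the highest library for 26 members and the lowest for 11, beside 39.9% and 38.3% of all genes.

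IM cells were fewer, so 34 members with at least 50 CPM were compared and the limit was set at 1.5-fold. The other 9, below that level, were Atp6v0d2, Atp6v1c1, Atp6v1h, Gaa, Glb1, Mcoln1, Mitf, Naglu and Tfeb. At the late stage 1 member was higher in HER2 and 0 lower, beside 3.77% and 3.14% of 2864 genes. It was Lgmn, with 539 CPM in HER2 late and 379 in wildtype late IM cells, a ratio of 0.61 (0.49 to 0.72), just past the limit. By plain CPM (0.51), with a mitochondrial limit of 20% (0.58) and with the length bins (0.56) it lay inside. Ctsh (0.46), Atp6v0b (0.41), Atp6v1f (0.38) and Ctsz (0.36) followed, and Atp6v1e1 (-0.43) and Grn (-0.38) were the lowest. The Spearman correlation of the late IM ratios with transcript length was -0.44 across 2863 genes and -0.36 across the 34 members.

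At the early stage 0 members were higher in HER2 IM cells and 1 lower, beside 3.25% and 3.67% of all genes. It was Ctsl, with 88.0 CPM in HER2 early and 249 in wildtype early, a ratio of -1.45 (-1.69 to -1.22). Without cells holding at least 3 T cell UMIs, Ctsl lay inside the limit (-0.51), while Mitf (-1.11; averaging under 50 CPM with those cells included), Ctsd (-1.02), Ctsz (-0.76) and Psap (-0.63) were lower past it. The T cell genes summed to 198 CPM in HER2 early and 1659 CPM in wildtype early IM cells, and 20 cell cycle genes to 356 CPM in HER2 early and 956 CPM in wildtype early. Their part in the IM values of wildtype early, beyond the values without such cells, was not tested. Tfe3 (0.47), Asah1 (0.31) and Man2b1 (0.28) lay highest, all within the limit.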

How the data were processed

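Lung macrophages of 4 libraries, 1 per genotype and stage, were measured by single-cell RNA sequencing in droplets. Per gene and cell, the authors deposited UMI counts made with Cell Ranger 5.0.1 on mm10 per the submitters' processing notes (the matrix headers name Cell Ranger 4). They also deposited average expression of AM cells per group, a normalised signal scaled to 10000 per column, which served only as an alternative. The sources used here do not give their cell filter.

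From the deposited counts, cells with at least 1000 UMIs, 500 genes and at most 10% mitochondrial UMIs were kept. The mitochondrial limit removed 12.8 to 21% of cells. No doublet caller was run. Cells were assigned to AM, IM or other by the gate given with the results, and the 9 gate genes are not reported. AM sums held 18226829 to 27573921 UMIs per library and IM sums 2263388 to 3865769. AM was compared with IM by edgeR 4.0.16 (quasi-likelihood test, TMM scaling, filterByExpr, library as block, R 4.3.3) on summed counts, with Benjamini-Hochberg adjustment over all genes. The SE given with each log2 difference is its size divided by the square root of the F value of the test. It is not a spread measured directly over the libraries. Nothing in the sources says that the libraries are separate animals. The p-values rest on how the AM minus IM difference varied among the 4 libraries, with information shared across genes. These libraries differ in genotype and stage. On simulated counts of the same layout (12744 genes) the test recovered 99.5% of 200 genes changed 2-fold and called 0.0638% of unchanged genes. The simulation gave all genes the same spread and all libraries the same means. It checks that the code runs as meant, and its rates do not carry over to these data. Genotype and stage ratios had 1 library per group and no test: log2 CPM ratios less the median of all genes, with exact conditional binomial 95% intervals that cover counting error only. Members at or past a log2 of 0.32 (AM, at least 20 CPM) or 1.5-fold (IM, at least 50 CPM) were counted.

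Members to name were the called ones with a log2 AM minus IM difference of at least 1 (at most 12 each way, by adjusted p), the 5 highest and 5 lowest of each ratio by the interval bound nearest to 0, those ordered alike by genotype at both stages, the MiT/TFE factors, and the 3 highest and 3 lowest other pathway genes. Other members, and Ctsd in the AM over IM comparison, were named after their values were seen. The members and lists were chosen with earlier results of these data known. No member had a near-identical copy (blastn 2.17.0, last 300 bases, at least 95% over at least 90 bases). Alternatives were DESeq2 1.42.0, other scalings, filters, gates, free RNA subtraction and leaving out each library.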

Additional observations from a re-analysis of the deposited data

How the results depend on the processing

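Between AM and IM cells, leaving out each library in turn gave 31 to 33 members higher and 5 lower, and over all genes 3337 to 4021 higher and 3536 to 4046 lower. That fit pairs the classes within each library; without this replicate block 30 members were higher and 5 lower. Between genotypes or stages no paired analysis was possible because the labels give no replicate numbers and each group is 1 library. With UMI totals in place of TMM, chosen after seeing the data, 8 members were lower and 2462 of all genes higher. The sign turned for Ctsa (-0.20), Cd68 (-0.18), Glb1 (-0.15) and Gaa (-0.017) with UMI totals, for Ctsa (-0.018) and Cd68 (-0.026) without cells holding T cell UMIs (also added after seeing the data), for Npc2 with no filter on low counts (0.053) and a 20% mitochondrial limit (0.0018), and for Tfe3 with no filter (0.069) and under 3 UMIs of the other gate (0.050); leaving out each library, Tfe3 ranged between -0.12 and 0.10.

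In AM cells at the late stage, plain CPM gave 0 members higher and 18 lower in HER2, and the length bins, added after seeing the data, gave 0 higher, with Atp6v1f at -0.038. In wildtype late over early, plain CPM gave 20 higher and 0 lower, the limit on Gm42418 gave 2 lower and the length bins 0 lower. In HER2 late over early, 0 were higher by plain CPM, free RNA subtraction and length bins, and 2 were lower after free RNA subtraction. In IM cells at the early stage, 2 were lower by plain CPM, equal cell weights, the stricter gate, free RNA subtraction and length bins, 3 with Gm42418, mitochondrial and ribosomal genes left out, with no filter on low values (and 2 higher) and without cycling cells, and 4 without T cell UMIs. In IM cells at the late stage, 0 were higher by plain CPM, the 20% limit and length bins, 2 with no filter, and 1 was lower with the stricter gate, free RNA subtraction and length bins. The causes were not tested. With 1 library per group, depth narrows the counting intervals but cannot show the spread between mice, and 330 IM cells in wildtype early limit the IM ratios.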
